A study of Mus musculus with 14 samples.

Results

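Interleukins are small secreted proteins through which immune and stromal cells signal to each other, and interleukin receptors are the membrane proteins that read them. Most receptors pair a ligand-specific chain with a chain shared by several cytokines, so *Il6st* (gp130) serves the interleukin-6 family, *Il4ra* serves IL-4 and IL-13, and *Il1rap* serves the interleukin-1 family. Decoys and antagonists such as *Il1rn* occupy a receptor or a ligand without signalling. Many cytokine mRNAs carry adenylate- and uridylate-rich elements (AREs) in the 3′UTR. Zfp36l2 is a zinc finger protein that binds such elements and destabilizes the mRNA.

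The genes described here are those named Il and a digit in the spleen or ovary comparison of L2-fKO with wild type, without *Il1a*, *Il1b*, *Il6*, *Il10*, *Il7r*, *Il1r2*, *Il2rb* and *Il18rap*. The rule gave 51 genes of the 20139 listed in either organ. By role they were 15 ligands, 24 ligand-specific or single receptors, 7 shared receptor chains, 3 decoys or antagonists and 2 others, *Il4i1* (an amino acid oxidase) and *Il1bos* (an RNA antisense to *Il1b*). All 51 had a row in the spleen count table, and 44 had a row in the ovary table.

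Poly(A) RNA was sequenced from mouse pups, 4 wild-type and 4 L2-fKO spleens and 3 wild-type and 3 L2-fKO ovaries, with 1 library per animal and organ. L2-fKO animals are Zfp36l2-/-;CMV-Cre: exon 2 of both *Zfp36l2* copies, flanked by loxP sites, was removed by a Cre that the CMV promoter drives in all tissues, germ cells included. Wild-type littermates carried 2 intact *Zfp36l2* copies and the same CMV-Cre transgene, so Cre is common to all groups. The wild-type spleens came from 2 females and 2 males, and the L2-fKO spleens from 1 female (spleen 3) and 3 males. L2-fKO spleen 3 and L2-fKO ovary 1 came from the same animal. L2-fKO pups die young, and the labels give no age for any animal. The labels call the spleen source spleen organoid and the knockout L2-cKO.

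Spleen libraries held 39138010 to 45167464 counts on genes, and ovary libraries 31052510 to 44270070 recovered reads. *Zfp36l2* itself lay at 4362 to 7394 normalized counts in wild-type spleens and 278 to 405 in L2-fKO spleens, and at 4745 to 4906 in wild-type ovaries and 758 to 1011 in L2-fKO ovaries. The first principal component of the spleens separated the genotypes. On the second, wild-type spleen 1 and L2-fKO spleen 4 stood apart from wild-type spleen 3 and L2-fKO spleen 3. Among the ovaries, L2-fKO ovary 2 stood apart on the first component. The pairs of spleens differed in lymphocyte RNA: the summed level of 12 B cell markers was 80108 and 43380 normalized counts in wild-type spleen 1 and L2-fKO spleen 4, against 15749 and 17150 in wild-type spleen 3 and L2-fKO spleen 3. Markers of the labelled organ were present, with 138461 to 188925 summed normalized counts of 10 oocyte markers in the ovaries.

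Letters of the ARE were looked for on the transcript strand of the longest annotated 3′UTR (GENCODE release 21, GRCm38). The 7-mer TATTTAT, which is the preferred ARE core of this protein family with T for U, contains the 5-mer ATTTA. Of the 46 interleukin genes tested in the spleen that have a 3′UTR, 14 held the 7-mer (30.4%), against 29.7% of the 14192 genes tested with a 3′UTR. In the ovary 13 of 43 held it (30.2%), against 29.3% of 15414. At least 2 copies were present in 9 of the 46 spleen genes (19.6%) and 10.5% of all genes. The sites of *Il1r1* are shown because it was the only one of these genes past adjusted p of 0.05 in both organs. The *Il12a* sites are 2 of the 5 in that gene, the most among the genes tested in the spleen, and the *Il33* window shows a 5-mer outside a 7-mer. Capitals mark the 7-mer, or the 5-mer for *Il33*.
Il1r1, 3′UTR position 1546, chr1:40314928-40314956, plus strand: ttcactgttggTATTTATagcacctacct
Il1r1, 3′UTR position 2623, chr1:40316005-40316033, plus strand: aaaataatttaTATTTATactggtcaata
Il12a, 3′UTR position 346, chr3:68698385-68698413, plus strand: ttatttaaaaaTATTTATtgctatatttt
Il12a, 3′UTR position 408, chr3:68698447-68698475, plus strand: tatttattttcTATTTATtataatatttc
Il33, 3′UTR position 1250, chr19:29960279-29960307, plus strand: atagttttacttATTTAgacaacagcaat

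In the spleen, 47 of the 51 genes had at least 10 counts in at least 4 libraries and were tested, with edgeR's quasi-likelihood test on TMM-normalized counts, the p adjusted by Benjamini-Hochberg over 16911 genes. Calls needed an adjusted p below 0.05 together with a change of more than 2-fold either way, that is 1 on the log2 scale. Upregulated genes numbered 4 (8.51%): *Il33*, *Il6st*, *Il20ra* and *Il4ra*, against 2.9% of all genes tested. *Il1rn* was the downregulated one (2.13%), against 3.11% of all genes. With no limit on the fold, 7 genes passed (14.9%), against 13.4% of all genes tested, the other two being *Il1r1* upward and *Il3ra* downward. The median log2 fold change was -0.057 over the 47 genes and -0.020 over all genes, and 21 of the 47 lay above 0. In bulk tissue, fewer cells of a type and less RNA per cell cannot be told apart.

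*Il33* encodes an alarmin of the interleukin-1 family that is stored in the nuclei of stromal and endothelial cells. Its normalized counts were 524, 427, 346 and 396 in wild-type spleens 1 to 4. In the L2-fKO spleens they were 1404, 1421, 1508 and 1404. The groups lay far apart and each was narrow, with means of 423 ± 75.2 and 1434 ± 49.8 (SD, n = 4). The rise was 3.39-fold, or 1.76 on the log2 scale (SE 0.14, edgeR adjusted p = 7.24e-05). *Il33* was the only ligand among the 13 tested whose adjusted p was below 0.05. Its 3′UTR of 1677 bases held no 7-mer and 3 5-mers.

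*Il6st*, the signalling chain common to the receptors of IL-6, IL-11, IL-27, oncostatin M and LIF, was the most abundant of these genes in the spleen by count. Wild-type spleens held 5855, 4739.7, 4539 and 3771 normalized counts. L2-fKO spleens held 10498, 11709, 10607 and 13464. All L2-fKO values were above all wild-type values, and the mean rose 2.45-fold, by 1.29 on the log2 scale (SE 0.15, edgeR adjusted p = 0.000687). Of the chains that pair with it, those for interleukins did not pass the test: the log2 fold change was -0.06 for *Il6ra* (95% interval -0.56 to 0.45), -0.04 for *Il11ra1* (-0.44 to 0.35) and -0.25 for *Il27ra* (-1.01 to 0.51). Receptor chains of other gp130 cytokines passed, with log2 fold changes of 1.53 for *Osmr* (edgeR adjusted p = 0.00225), 0.66 for *Lifr* (adjusted p = 0.0353) and 0.54 for *Cntfr* (adjusted p = 0.0229). Reads of *Il11ra1* are uncertain, since the mouse genome holds near-identical copies of the gene. The 3′UTR of *Il6st*, 5641 bases long, held no 7-mer and 9 5-mers.

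*Il4ra*, the alpha chain that IL-4 and IL-13 receptors share, had 2664, 1489, 1034 and 1275 normalized counts in wild-type spleens. The L2-fKO spleens had 2968, 2797, 3214 and 4039. The groups did not overlap, but wild-type spleen 1 came close to the lowest L2-fKO library. The fold was 2.01, or 1.01 on the log2 scale (SE 0.27, edgeR adjusted p = 0.0352). This call was lost without any 1 library other than wild-type spleen 1, with an adjusted p of 0.0553 to 0.107, and without wild-type spleen 3 and L2-fKO spleen 3 together (adjusted p = 0.0830). *Il13ra1*, which pairs with *Il4ra* in the IL-13 receptor, had 769.5, 752, 625 and 589 in the wild-type spleens and 859, 829.6, 866 and 1249 in the L2-fKO spleens (log2 0.48, SE 0.16, adjusted p = 0.0834). *Il4* itself lay at 26.4 to 32.3 and 22.2 to 32.4 normalized counts, with a log2 fold change of -0.06 (95% interval -0.56 to 0.44).

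**Figure D1:**
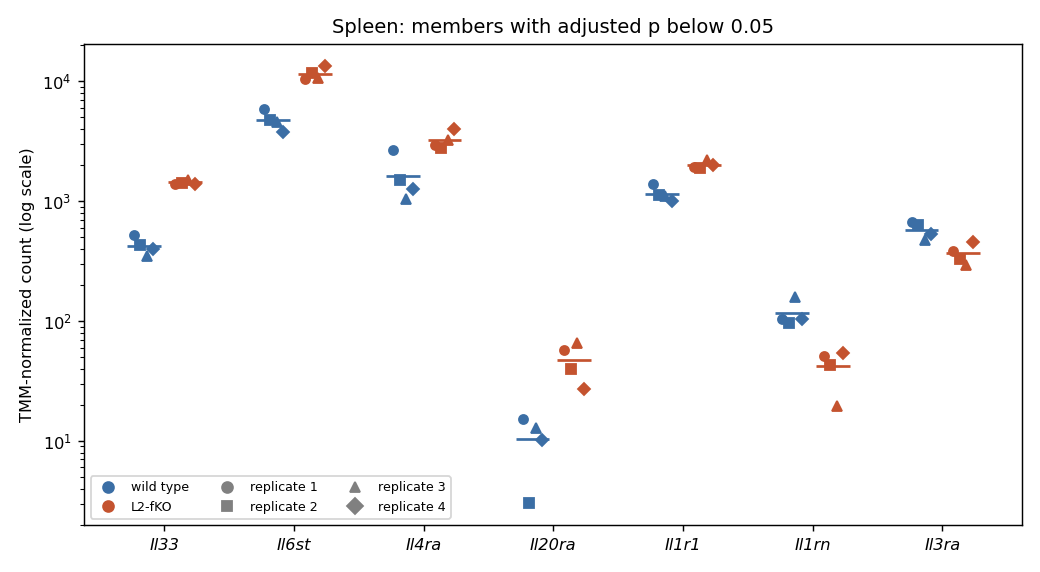
Normalized counts (y axis, log scale) of the 7 interleukin genes with an adjusted p below 0.05 in the spleen; each point is 1 library, its shape the replicate and its colour the genotype, and the line is the group mean. *Il33* lies at 346 to 524 in wild type and 1404 to 1508 in L2-fKO spleens. The genotypes overlap for none of the 7 genes, which were picked by the test on these same libraries. Among the 47 genes tested, all L2-fKO values lay above wild type for 6 and below it for 4, *Il17f* included. The shares over all genes tested were 9.61% and 10.8%, and 20.4% for either.

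*Il20ra*, a receptor chain for IL-19, IL-20 and IL-24, was low in wild-type spleens, at 15.1, 3.03, 12.9 and 10.1 normalized counts. It reached 57.4, 39.9, 65.2 and 27.3 in L2-fKO spleens. All 4 L2-fKO libraries were higher, with the largest fitted change of the 47 genes, 2.18 on the log2 scale (SE 0.44, 95% interval 1.20 to 3.16, edgeR adjusted p = 0.0114). Its partner chain *Il20rb* had 102 to 182 normalized counts in wild type and 124 to 174 in L2-fKO spleens (log2 0.31, adjusted p = 0.397). *Il20*, one of its ligands, had no count in 7 of the 8 spleens and was not tested.

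*Il1r1*, the signalling receptor of IL-1, had 1385, 1136, 1106 and 1007 normalized counts in wild-type spleens. L2-fKO spleens had 1930.1, 1902, 2220.4 and 2012. The groups were separate, and the mean rose 1.74-fold, within the fold limit (log2 0.80, SE 0.12, edgeR adjusted p = 0.00285). The co-receptor *Il1rap* lay in the opposite direction in every library, at 314, 272, 384 and 301 in wild type and 199, 264, 149.9 and 263 in L2-fKO spleens. That difference did not pass the test (log2 -0.54, SE 0.21, adjusted p = 0.119).

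*Il1rn* encodes the interleukin-1 receptor antagonist, which blocks *Il1r1*. It had 104, 96.0, 159 and 104 normalized counts in wild-type spleens. L2-fKO spleens had 51.2, 43.2, 19.6 and 54.6, all lower. It fell by 1.45 on the log2 scale, which is 2.73-fold (SE 0.32, edgeR adjusted p = 0.0167). The 12 neutrophil markers moved with it: 11 were downregulated, against 3.11% of all genes tested. Their summed level was 174002 to 279858 normalized counts in wild type and 11656 to 66780 in L2-fKO spleens, with none of the 12 at 0 in any library. Wild-type spleen 3 was highest and L2-fKO spleen 3 lowest of their groups for *Il1rn*, for the neutrophil sum and for the sum of the eosinophil markers. All 6 eosinophil markers tested were downregulated, summing to 14317 to 31293 in wild type and 1512 to 3486 in L2-fKO spleens, none at 0, and so were *Ly6c2* and *Ccr2* among 13 macrophage and monocyte markers, whose sum was 53219 to 102032 and 87519 to 146180. All 11 megakaryocyte and platelet markers were downregulated too, summing to 33460 to 62327 in wild type and 2943 to 3606 in L2-fKO spleens. In that sum wild-type spleen 3 was lowest and L2-fKO spleen 3 highest of their groups, the reverse of *Il1rn*. The part of these cells in the *Il1rn* result was not tested.

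*Il3ra*, the ligand-specific chain of the IL-3 receptor, had 673, 637, 474 and 531 normalized counts in wild-type spleens. In L2-fKO spleens it had 385, 331, 293 and 457, all lower, and it fell by 0.66 on the log2 scale (SE 0.18, edgeR adjusted p = 0.0364). Without L2-fKO spleen 1, 2 or 3, without wild-type spleen 1, 2 or 4, or in the males alone, the adjusted p was 0.0760 to 0.107. The beta chains of this receptor, *Csf2rb* and *Csf2rb2*, lay the other way, with log2 fold changes of 0.95 (SE 0.18, adjusted p = 0.00967) and 0.83 (SE 0.24, adjusted p = 0.0490).

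Stromal and vascular markers were higher alongside *Il33*, *Il6st* and *Il1r1*. Of 11 fibroblast and stroma markers tested, 3 were upregulated, *Pdgfra*, *Pdgfrb* and *Lum*, against 2.9% of all genes tested. The summed level of the list was 54041 to 62175 normalized counts in wild type and 65119 to 86378 in L2-fKO spleens, with 1 marker at 0 in every library. The 10 endothelial markers summed to 25696 to 32410 and 34080 to 50299, none of them at 0. None of the 10 was called by edgeR or DESeq2, and 5 had an unadjusted p below 0.05, against 29% of all genes tested. *Cdh5* and *Flt1* had an adjusted p below 0.05 by edgeR, against 13.4% of all genes tested. Among 12 mast cell and basophil markers, 6 were upregulated and *Kit* was downregulated, against 2.9% and 3.11% of all genes tested. Their sum was 5843 to 6840 in wild type and 4176 to 18283 in L2-fKO spleens. *Il1rl1*, the IL-33 receptor that mast cells carry, had 932 to 1886 and 1041 to 1685 normalized counts (log2 -0.09, 95% interval -0.59 to 0.41). The part of these cell types in the results was not tested.

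The other ligands did not pass the test, and apart from *Il17f* spanned log2 fold changes of -1.11 to 0.68. *Il17f*, a T cell cytokine, was at 9.43, 11.1, 13.9 and 18.2 normalized counts in wild type and 3.13, 6.65, 6.52 and 6.82 in L2-fKO spleens. It reached 10 counts in wild-type libraries alone and so was tested only through the group where it was high, as was *Il20* in the ovary through L2-fKO. No fold is printed for either, though the figures of fitted changes include them. *Il12a*, the subunit that forms IL-12 with *Il12b*, had 171, 101.0, 62.6 and 113 in wild type and 57.4, 34.3, 34.8 and 80.2 in L2-fKO spleens (log2 -1.11, SE 0.37, adjusted p = 0.0764). Its groups overlapped, and it passed without wild-type spleen 3 (adjusted p = 0.0350), without L2-fKO spleen 4 (adjusted p = 0.0292) or by DESeq2 (adjusted p = 0.0216). The abundant ligands were *Il16*, a lymphocyte chemoattractant, at 1829 ± 739 and 1478 ± 492 (SD, n = 4), and *Il18*, an inflammasome product, at 924 ± 221 and 1169 ± 367. Neither passed the edgeR test, with log2 fold changes of -0.31 for *Il16* (adjusted p = 0.540) and 0.34 for *Il18* (adjusted p = 0.374).

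Among the shared chains, *Il17ra* had 3521 ± 448 and 2953 ± 390.0 normalized counts (SD, n = 4, log2 -0.25, adjusted p = 0.224). *Il2rg*, the common gamma chain of lymphocyte cytokine receptors, ranged from 861 to 2585 in wild type and from 944 to 2376 in L2-fKO spleens. Its order followed the lymphocyte markers, with wild-type spleen 1 and L2-fKO spleen 4 highest and wild-type spleen 3 and L2-fKO spleen 3 lowest. *Il21r*, *Il10ra*, *Il16*, *Il27ra*, *Il6ra*, *Il34*, *Il5ra*, *Il2ra*, *Il12rb1* and *Il3ra* had the same highest and lowest libraries. Of these genes, *Il3ra* alone passed the adjusted p. The sum of the dendritic cell markers had the same extremes. It was 16226 and 19768 in the highest libraries and 9548 and 8771 in the lowest. Over the 47 genes, 30 had their highest wild-type value in wild-type spleen 1 and 35 their highest L2-fKO value in L2-fKO spleen 4. The remaining decoys were *Il18bp*, which binds IL-18, at 627 ± 146 and 998 ± 399 (log2 0.67, adjusted p = 0.129), and *Il13ra2*, at 59.0 ± 23.6 and 93.4 ± 19.9 (log2 0.66, adjusted p = 0.163).

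**Figure D2:**
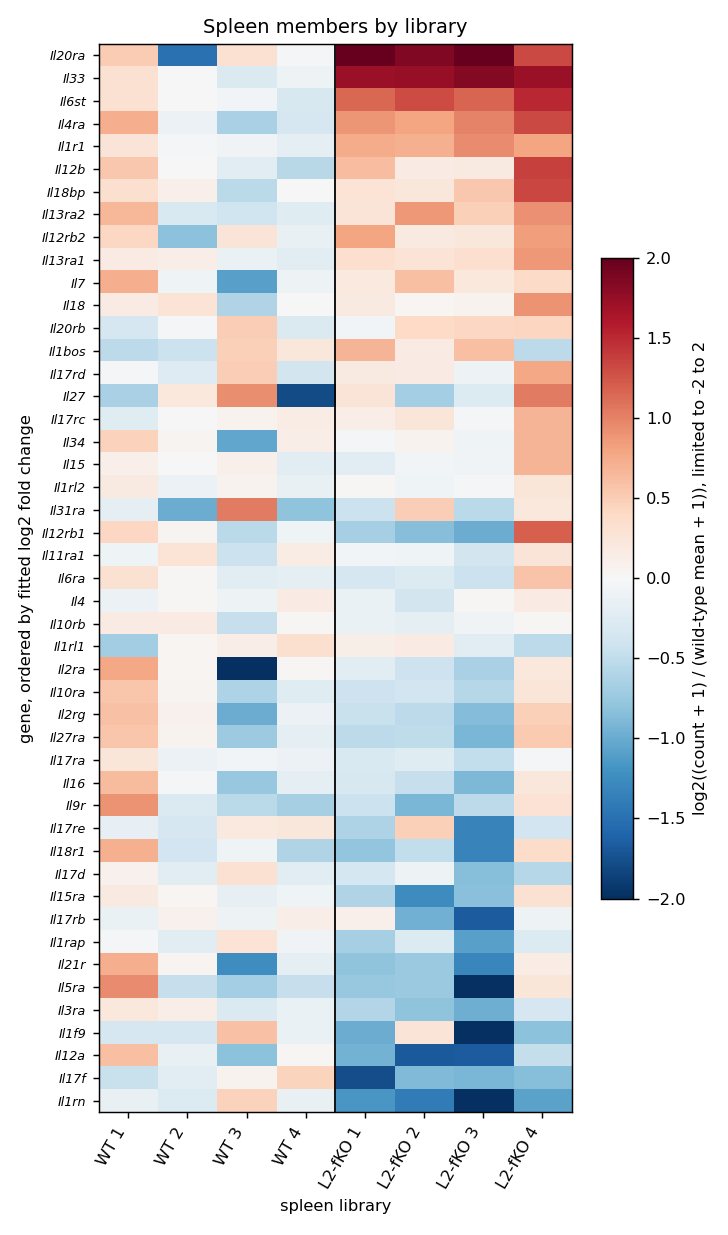
Each row is 1 of the 47 interleukin genes tested in the spleen and each column 1 library; colour is log2 of (normalized count + 1) over (wild-type mean + 1), limited to -2 to 2, with genes ordered by fitted log2 fold change. *Il20ra*, *Il33*, *Il6st*, *Il4ra* and *Il1r1* are red in all 4 L2-fKO columns, while L2-fKO 4 is the highest L2-fKO library for 35 of the 47 genes. *Il17f*, tested only through wild type, is placed by its fitted change too.

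*Il22ra1*, *Il20*, *Il23a* and *Il4i1* were too low in the spleen to be tested. *Il22ra1*, the IL-22 receptor of epithelial cells, had 11.3, 6.06, 21.9 and 18.2 normalized counts in wild type and 0, 3.32, 2.17 and 3.41 in L2-fKO spleens. It could be tested only with every gene of at least 1 count kept, on 0 to 22 counts per library. There it was downregulated (log2 -2.58, SE 0.63, edgeR adjusted p = 0.0117). It was picked for this after its values were seen, so the call is a description only. Of 6 pancreatic acinar markers tested, 5 were also downregulated, against 3.11% of all genes tested. The list summed to 23616, 7419, 1639 and 20824 in wild-type spleens 1 to 4 and 1263 to 2189 in L2-fKO spleens. Wild-type spleen 3 was lowest of its group in that sum and highest for *Il22ra1*. The part of acinar cells in the *Il22ra1* values was not tested.

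In the ovary, 43 of the 44 listed genes were tested with limma on log2(normalized count + 1), adjusted over 18504 genes, and *Il4i1* was too low. None was called in either direction by limma, by edgeR or by DESeq2 on the recovered reads, against 0.73% of all genes called higher and 0.227% called lower; 8 had an unadjusted p below 0.05 by limma, against 16.8% of all genes. With no limit on the fold, *Il1r1* alone passed (2.33%), against 1.58% of all genes. The median log2 fold change was 0.086 over the 43 genes and -0.004 over all genes, with 31 of 43 above 0, *Il20* included.

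*Il1r1* had 1487, 1643 and 1577 normalized counts in wild-type ovaries 1 to 3. L2-fKO ovaries had 2854, 3355 and 2848. The 3 L2-fKO libraries were all higher, and the mean rose 1.92-fold (log2 0.94, SE 0.09, limma adjusted p = 0.0053). Macrophage and monocyte markers were higher beside it, summing to 5086 to 5363 in wild type and 7180 to 8463 in L2-fKO ovaries, as were endothelial markers, at 18191 to 19037 and 21558 to 25995. *Hmox1* passed in the former list and *Cdh5* in the latter, none of these genes was at 0 in any ovary, and the part of these cells was not tested.

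Next in order of p were *Il17rc* and *Il17rb*, receptors of the IL-17 family, and *Il1rl1*, none of which passed. *Il17rc* had 588, 651 and 584 normalized counts in wild type and 758, 885 and 821 in L2-fKO ovaries (log2 0.43, SE 0.10, limma adjusted p = 0.0873). *Il17rb*, which binds IL-25, had 523, 601 and 642 in wild type and 791, 1062 and 769.8 in L2-fKO ovaries (log2 0.56, SE 0.15, adjusted p = 0.125). *Il1rl1* was 152, 139 and 159.6 in wild type and 111, 90.4 and 69.5 in L2-fKO ovaries (log2 -0.75, SE 0.21, adjusted p = 0.145). The other IL-17 receptors, *Il17ra*, *Il17rd* and *Il17re*, had log2 fold changes of 0.15, 0.15 and 0.05 (adjusted p = 0.638, 0.722 and 0.967). Genotypes did not overlap for *Il17rc*, *Il17rb* and *Il1rl1*. They were among 8 such genes of the 43, against 25.2% of all genes tested in the ovary. The 8 include *Il20*, which was tested only through L2-fKO. With DESeq2 on recovered reads the adjusted p was 0.0109 for *Il17rc*, 0.0190 for *Il17rb* and 0.0482 for *Il1rl1*, so they passed there.

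*Il33* had 236, 172 and 179.8 normalized counts in wild-type ovaries and 251, 300.0 and 342 in L2-fKO ovaries (log2 0.60, SE 0.18, adjusted p = 0.164). *Il1rn* lay above wild type, at 86.4, 114 and 129 against 158, 165 and 174 (log2 0.61, SE 0.19, adjusted p = 0.182). *Il7*, the stromal cytokine of lymphocyte precursors, had the largest fitted change of the ligands, at 131, 92.8 and 112 in wild type and 94.8, 45.2 and 59.2 in L2-fKO ovaries (log2 -0.80, SE 0.30, adjusted p = 0.244). *Il6st* and *Il11ra1*, the most abundant by count, had log2 fold changes of -0.06 (95% interval -0.31 to 0.20) and 0.02 (-0.15 to 0.18). *Il34* and *Il17d* were the leading ligands, at 733 ± 79.6 and 510.4 ± 29.6 in wild type and 827 ± 252 and 536 ± 22.1 in L2-fKO ovaries (SD, n = 3).

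**Figure D3:**
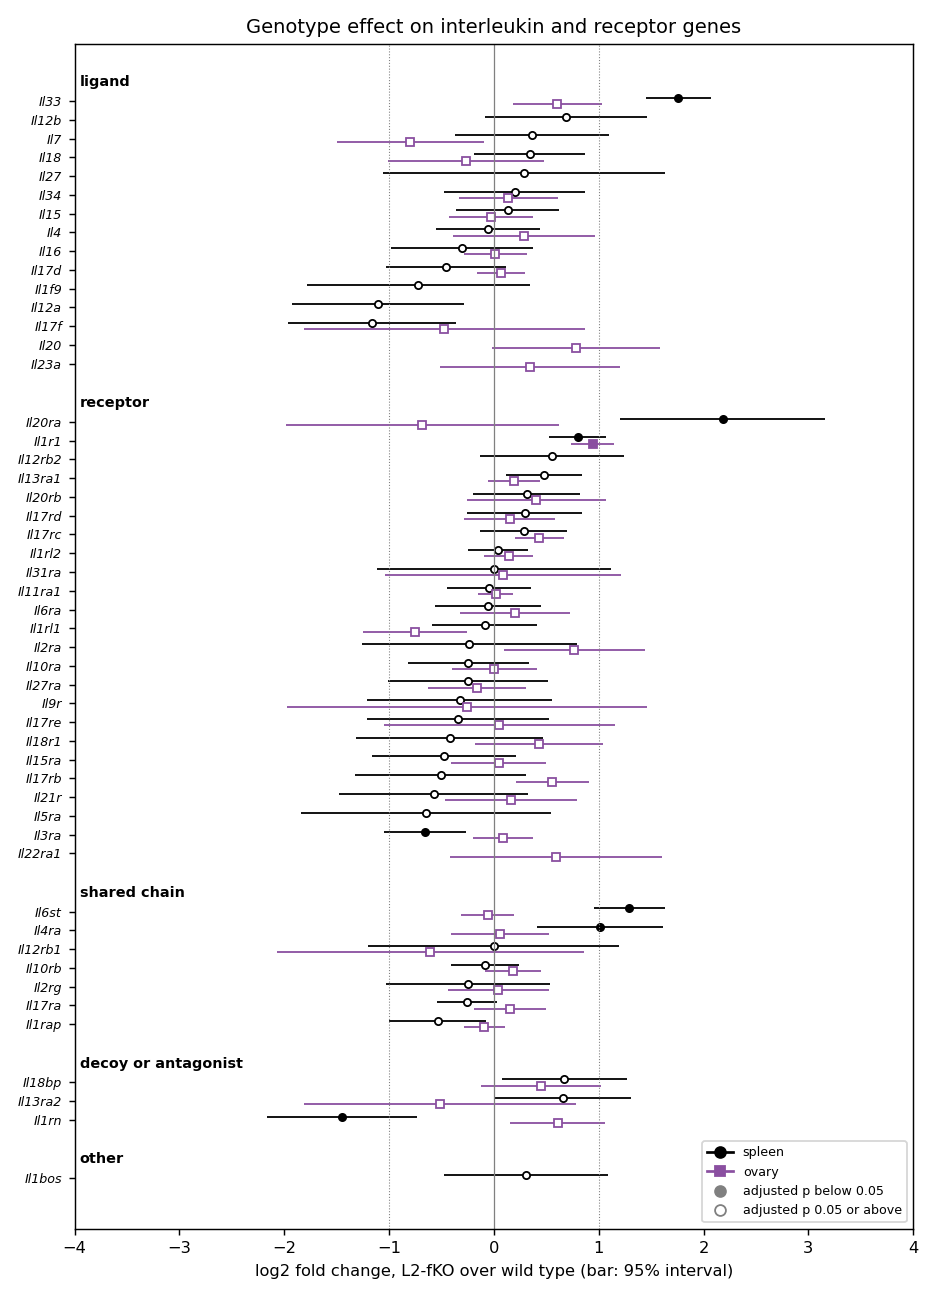
Fitted log2 fold change of L2-fKO over wild type (x axis) with its 95% interval for each gene tested, grouped by role; circles are spleen, squares are ovary, and filled symbols have an adjusted p below 0.05. Filled symbols are 7 for the spleen and 1, *Il1r1*, for the ovary. *Il17f* in the spleen and *Il20* in the ovary were tested only through the genotype where they were high.

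Whether the genotype effect differed between organs was tested directly, as the spleen effect minus the ovary effect. The test was limma on all 14 libraries for the 39 genes in both tables. It took the libraries as independent, though L2-fKO spleen 3 and L2-fKO ovary 1 came from the same animal. The genotype effect differed at an adjusted p below 0.05 for 4 of the 39 (10.3%), against 6.35% of the 15300 genes tested. *Il6st* differed by 1.36 (SE 0.20, adjusted p = 0.000946), with all spleens higher in L2-fKO and the ovaries overlapping. *Il33* differed by 1.17 (SE 0.23, adjusted p = 0.00728). *Il1rn* differed by -2.11 (SE 0.43, adjusted p = 0.00956), lower in every L2-fKO spleen and higher in every L2-fKO ovary. *Il20ra* differed by 2.88 (SE 0.75, adjusted p = 0.0362), on 4.11 to 17.5 normalized counts in the ovaries. Its adjusted p was 0.0606 without L2-fKO spleen 3 and 0.0777 without L2-fKO ovary 1, the libraries of the animal shared by the organs, with a difference of 2.70 in both; no other single library was left out of this fit. For *Il1r1* the difference was -0.13 (95% interval -0.47 to 0.21, adjusted p = 0.685), for *Il4ra* 1.03 (0.24 to 1.83, adjusted p = 0.116, and 0.0266 with the male spleens alone) and for *Il3ra* -0.74 (-1.24 to -0.25, adjusted p = 0.0710).

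**Figure D4:**
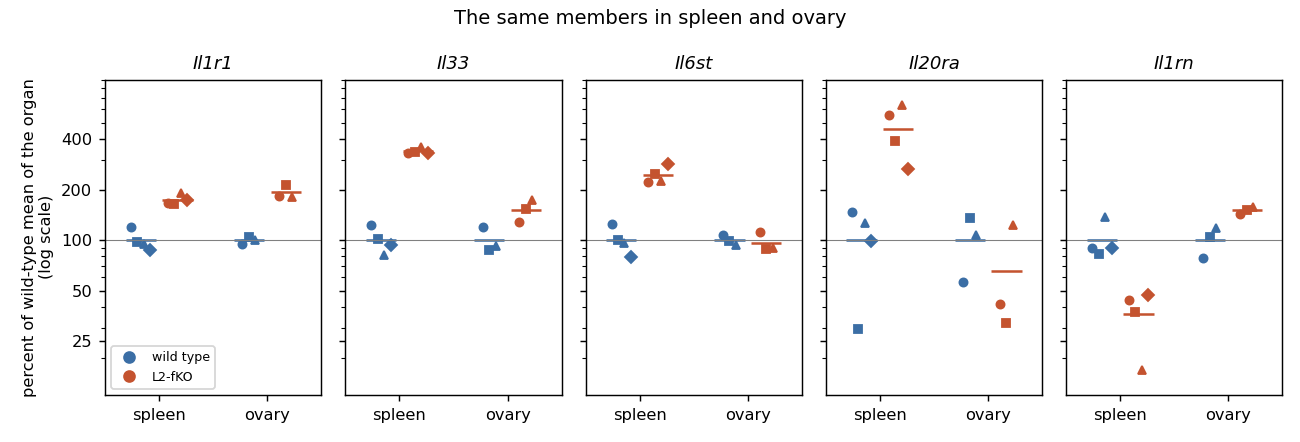
Level in each library as percent of the wild-type mean of its organ (y axis, log scale) for *Il1r1* and the 4 genes whose effect differed between organs; points are libraries, lines group means, blue wild type and red L2-fKO. *Il1r1* is higher in L2-fKO in both organs, *Il6st* is higher in the spleens and overlaps in the ovaries, and *Il1rn* lies below wild type in spleen and above it in ovary.

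Levels were compared between genes as mean normalized count per kilobase of exon. In wild-type spleen the order was led by *Il18* (896), *Il2rg* (718), *Il10rb* (475), *Il10ra* (428) and *Il6st* (426). The gap of *Il10ra* and *Il6st* was well within the spread of either. In wild-type ovary it was led by *Il6st* (854), *Il11ra1* (666), *Il17d* (401), *Il13ra1* (379) and *Il34* (374), with the last 3 within their spread. *Il1r1* stood at 182 in spleen and 247 in ovary. The organs were normalized separately, so their values are set side by side as a description. *Il17d* was 25.2 in the spleen and *Il18* was 71.1 in the ovary.

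**Figure D5:**
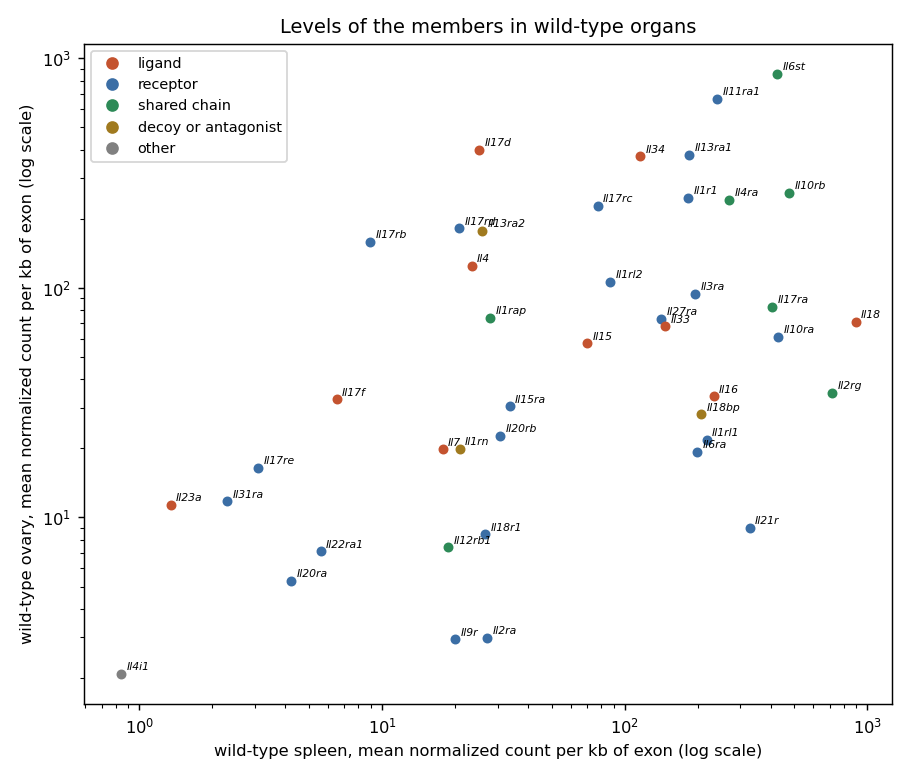
Mean normalized count per kilobase of exon in wild-type spleen (x axis, n = 4) and wild-type ovary (y axis, n = 3), both log scales, for the genes listed in both; each point is a gene, coloured by role. *Il18*, *Il2rg* and *Il21r* lie to the lower right (high in spleen), and *Il17d* and *Il17rb* to the upper left.

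The 14 spleen genes with a 7-mer had a median log2 fold change of -0.17, with 5 above 0. That median includes *Il17f*, which was tested only through wild type and pulls it down. Apart from *Il17f* the genes ranged from -1.11 (*Il12a*) to 0.80 (*Il1r1*). The 32 without it had a median of -0.02 and ranged from -1.45 to 2.18, and held 6 of the 7 that passed the adjusted p. In the ovary the medians were 0.09 for 13 genes, *Il20* included, and 0.11 for 30. *Il1r1* was the gene with a 7-mer that passed in either organ. *Il1rap* with 3 copies, *Il10ra* with 3 and *Il12a* with 5 had log2 fold changes of -0.54, -0.24 and -1.11 in the spleen.

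Of the genes that carry or limit interleukin signals, 3 of 25 JAK-STAT and SOCS genes were upregulated in the spleen, against 2.9% of all genes tested. All 3 encode feedback inhibitors that cytokine signalling induces. *Socs3*, which binds gp130, went from 593 ± 93.8 to 3172 ± 426 normalized counts (SD, n = 4, log2 2.42, SE 0.15). *Socs2* went from 484 ± 45.0 to 1307 ± 37.9 (log2 1.43, SE 0.11), and *Cish* from 956 ± 823 to 5183 ± 2681 (log2 2.44, SE 0.55). None of the 25 was called downward by edgeR or DESeq2, while *Stat5a* (log2 -0.75), *Stat5b* (-0.34), *Socs4* (-0.54) and *Pias1* (-0.39) had an adjusted p below 0.05. Related cytokine and receptor genes that were upregulated included the gp130 ligand *Osm* (168 ± 31.2 to 763 ± 283, log2 2.18, SE 0.26) and its receptor *Osmr* (779 ± 211 to 2245 ± 529, log2 1.53, SE 0.22). Downregulated ones included *Kit* and *Ifnlr1*, with log2 fold changes of -1.46 and -1.35. Of the 21 IL-1/TLR adaptor genes, none was called by edgeR or DESeq2, and 8 had an unadjusted p below 0.05, against 29% of all genes tested. *Chuk*, *Ikbkg* and *Pycard* had an adjusted p below 0.05, against 13.4% of all genes tested.

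In the ovary, none of the 25 JAK-STAT and SOCS genes was called by limma or DESeq2, 7 had an unadjusted p below 0.05, and *Stat6* passed the adjusted p with a log2 fold change of 0.44. None of the 21 IL-1/TLR adaptor genes was called by either tool, 2 had an unadjusted p below 0.05, and *Ikbkb* passed with 0.39. Over all genes tested by limma, 0.73% were called higher and 0.227% lower. An unadjusted p below 0.05 was held by 16.8% of them, and an adjusted one by 1.58%.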

How the data were processed

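Per the submitters' processing notes and the paper's methods, the authors used Trimmomatic 0.36 for trimming, STAR 2.5.2b for alignment to GRCm38, and featureCounts (Subread 1.5.2) for strand-specific counts of uniquely mapped reads. The authors deposited spleen counts per gene, and for the ovary a signal: counts divided by 1 size factor per library, from which whole reads were recovered for 100% of values (tolerance 0.001 read). The authors' fold changes and p-values were not used. The spleen was tested with edgeR 4.0.16 (TMM, at least 10 counts in at least 4 libraries), the ovary with limma 3.58.1 (trend, pseudocount 1, at least 10 in at least 3 libraries, folds on that scale), and DESeq2 1.42.0 was an alternative, in R 4.3.3. On simulated data the spleen test recovered 182 of 197 changed genes with 5 false calls, the ovary test 181 of 195 with 2. Each changed gene was shifted by 2 on the log2 scale there. Most fitted changes of the interleukin genes were smaller, and recovery of smaller changes was not simulated. Named genes were those with an adjusted p below 0.05, then the most abundant and most shifted per role, up to 3 a role. Members and lists were chosen with earlier results of these data known. Replicates are separate animals. Intervals are at 95%. *Il12a* without single libraries, *Il22ra1* and the neighbouring genes were chosen after their values were seen. Some results of the list of related cytokines and receptors are not reported here.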

Additional observations from a re-analysis of the deposited data

Results flagged for a closer look

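Among 94 groups of 4 spleens (47 genes, 2 genotypes), 14 held a library far from the other three, with a gap, as a share of the whole range, above Dixon's 95% critical value; chance flags about 5% of groups. L2-fKO spleen 4 was the high library for *Il12rb1* (0.928), *Il13ra1* (0.914), *Il6ra* (0.895), *Il15* (0.870), *Il18* (0.863) and *Il34* (0.844). *Il12rb1*, for example, had 48.0, 42.1 and 38.0 normalized counts in the other L2-fKO spleens and 177 in this one. Beside it, the summed level of 10 NK cell markers was 563 to 599 in the other L2-fKO spleens and 2133 in L2-fKO spleen 4, and the part of these cells was not tested. Wild-type spleen 1 was the high library for *Il5ra* (0.920), *Il13ra2* (0.903), *Il9r* (0.844) and *Il17ra* (0.835). L2-fKO spleen 1 was low for *Il17f* (0.918) and *Il20rb* (0.910), wild-type spleen 3 was high for *Il1rn* (0.871) and L2-fKO spleen 3 was high for *Il33* (0.831).

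The genotype effect in spleen minus that in ovary was past the adjusted p for *Il1rn* (-2.11), *Il20ra* (2.88), *Il33* (1.17) and *Il6st* (1.36), all on the log2 scale.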

How the results depend on the processing

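In the spleen, the number of genes called higher was 4 and stayed within 1.5 times of it under every alternative run. The number called lower was 1 and became 2 by DESeq2, 2 with adjusted p as the only limit, 3 with every gene of at least 1 count and 2 without wild-type spleen 1 and L2-fKO spleen 4 (added after seeing the data); without 1 library it was 1 to 2. In the ovary, 1 gene was higher with adjusted p as the only limit and 4 had an adjusted p below 0.05 by DESeq2. *Il33*, *Il6st*, *Il1r1*, *Il20ra* and *Il1rn* in the spleen and *Il1r1* in the ovary passed under every alternative that tested them, and no named result changed sign. *Il20ra* could not be tested with at least 10 counts in all 8 spleens. The study describes age-matched spleen pairs but does not tie them to the label numbers. The titles give the number 3 to both wild-type spleens 3 and 4, so the block sets both with L2-fKO spleen 3 and leaves L2-fKO spleen 4 alone, without weight in the genotype effect. Deviations of same-numbered wild-type and L2-fKO spleens correlated at -0.15 to 0.18 and of ovaries at 0.07 to 0.38, so these numbers were not taken as pairs, and pairing by age was not tested. With the replicate block, 15 spleen genes had an adjusted p below 0.05 in place of 7, and 3 were called lower; in the ovary the block left 1. Genes under about 20 counts, such as *Il20ra* and *Il17f*, are limited by depth.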

Other observations

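Fitted changes of neighbouring genes are set side by side here, around genes already picked by the test. *Il1r1* (chr1:40225080-40317257, GRCm38) is followed on the same strand by *Il1rl2* (chr1:40324610-40367562), *Il1rl1* (chr1:40429570-40465415) and *Il18r1* (chr1:40465552-40500854), whose log2 fold changes in the spleen were 0.80 for *Il1r1* and 0.04, -0.09 and -0.42 for the others. *Il6st* (chr13:112464070-112510086, plus strand) lies beside *Il31ra* (chr13:112519898-112594360, minus strand), with 1.29 and 0.00. *Il4ra* (chr7:125552120-125579474) lies beside *Il21r* (chr7:125603429-125633570), with 1.01 and -0.57. In each of these neighbourhoods the first gene alone had an adjusted p below 0.05, and differences between genes were not tested.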
